A study of Mus musculus with 40 samples.

Results

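Leukocytes carry on their surface the receptors by which they are told apart, held in place and switched on or off. The genes described here encode such proteins: CD antigens, the Ly6 and other Ly antigens, Fc receptors, selectins, C-type lectins and the paired immunoglobulin-like receptors of the Lilr and Pilr families. They were chosen by symbol pattern, leaving out Cd22, Cd63, Cd68, Cd177, Ly6d and Clec4e, and by having a value in at least 3 mice of each of the 4 groups. Of the 101 annotated genes with such a symbol, 30 met this, out of 5297 genes and unnamed probes tested in the whole series. The label names Fc receptors, but only 1 of the 6 annotated Fc receptor genes, Fcer1a, was among the 30, and none of the 3 annotated genes of selectins and their ligand was.

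Total RNA of whole bone marrow cells from 20 mice of the inbred strain DBA/2 was measured on 2-colour arrays against a common reference, with 2 technical replicates per mouse. The 4 groups of 5 mice were an untreated control group and 3 groups given cyclophosphamide at 83 mg/kg by intraperitoneal injection, with marrow harvested 1, 2 or 5 days later. Cyclophosphamide is an alkylating drug that is activated in the liver, cross-links DNA and kills dividing cells of the marrow. The controls were untreated, with no vehicle injection named, and the labels give neither the age nor the sex of the mice.

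Surface antigens of leukocytes act in pairs of ligand and receptor, as assemblies such as the tetraspanin webs of the membrane, and through intracellular motifs that recruit either activating adaptors or inhibitory phosphatases. In marrow, the antigens a cell carries change as it matures, so that stem cells, B cell precursors, granulocytes, monocytes and macrophages each show their own set. Marrow also holds mast cells, basophils and few mature T and NK cells.

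Values are log2 ratios of a mouse's marrow RNA over the reference, so 0 means the level of the reference. The base of the logarithm is not stated and was taken as 2. The differences between groups were tested with limma, and a call is an adjusted p under 0.05 over all 5297 genes and unnamed probes. Errors of differences are standard errors (SE) of the fitted model, and intervals are 95% confidence intervals for a single gene. A ratio from whole marrow cannot tell fewer cells of a type from less RNA per cell, and this holds for every value below. A ratio also gives no level of one gene against another, so only differences between mice are compared. A column held values for 4079 to 7977 of 13443 probes, and the technical replicates of a mouse correlated at 0.683 to 0.957 across probes.

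Coverage decided which antigens could be described. Of the 101 annotated genes, 29 had no value in any mouse and 42 had values in some mice only, as the plot of mice with a value per gene shows. The 30 measured genes are 29.7% of the 101, against 40.8% of all 9616 genes with a symbol. The share with no value was 28.7% among the 101 genes and 30.8% among all genes with a symbol. By class, 18 of 58 CD antigens, 4 of 12 Ly antigens, 6 of 15 Clec genes, 1 of 6 Fc receptor genes, 1 of 5 Lilr and Pilr genes and 0 of 2 Ptprc genes were measured. Ptprc (CD45, the phosphatase carried by nearly all leukocytes), Cd44, Cd47, Cd24a, Cd79a, Cd79b, Cd74, Cd3e, Fcgr2b and Sele were among those with no value in any mouse. Of the 30 measured genes, 15 had values in all 20 mice, and the fewest mice for a gene was 14.

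**Figure D1:**
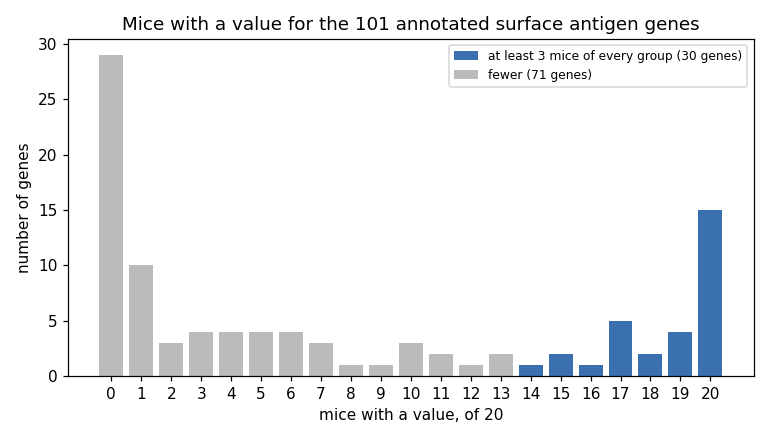
Number of mice with a value (x axis, of 20) for the 101 annotated genes of the symbol pattern (y axis, number of genes). Blue bars are the 30 genes with at least 3 mice of every group, all with 14 or more mice, and grey bars the other 71, of which 29 had no value in any mouse.

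On day 1 after cyclophosphamide, Cd80, a ligand that co-stimulates T cells, rose 1.64-fold over control, while Fcer1a, the IgE-binding chain of the mast cell and basophil IgE receptor, and Cd99, an adhesion protein of leukocytes and endothelium, fell to 0.75 and 0.74 of control. On day 2, Cd274 (PD-L1) rose 1.38-fold, and Cd53, Clec4a2, Pilrb1 and Fcer1a fell to 0.61, 0.63, 0.72 and 0.76 of control. By day 5 no member passed the test against control, and Cd53, Clec4a2 and Cd99 were higher than on day 2 while Cd274, Cd200r3 and Cd72 were lower. Each group had 5 mice, fewer for Cd80 and Cd274, and the values of each gene with their errors follow.

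Among the 30 genes, 11 differed somewhere among the 4 groups by the F test (36.7%, against 30.7% of all 5297). Pairs of groups were compared in 5 ways, each day against control, day 2 against day 1 and day 5 against day 2, while day 5 was not compared with day 1. These were Cd53, Cd84, Clec4a2, Pilrb1, Cd200r3, Clec7a, Cd80, Cd274, Fcer1a, Cd72 and Cd99. Against control on day 1, 3 of the 30 passed (10%, against 19.1% of all genes), with 1 higher (background 10.7%) and 2 lower (background 8.38%). On day 2, 5 passed (16.7%, against 19.2%), with 1 higher (background 9.61%) and 4 lower (background also 9.61%). On day 5, 0 passed (against 2.62%), higher (background 0.906%) or lower (background 1.72%). Day 2 against day 1 gave 1 call (background 2.1%), with 0 higher (background 1.36%) and 1 lower (background 0.736%). Day 5 against day 2 gave 6 (20%, background 20.8%), with 3 higher (background 10.3%) and 3 lower (background 10.5%). These shares lie near the background or under it, and nothing is read from them about the antigens as a group. On day 5, 5 of the 30 members had an unadjusted p under 0.05 (16.7%, against 11% of all genes), namely Cd72, Cd84, Cd93, Clec7a and Fcer1a, each with a lower mean than control. By the same measure the counts were 5 on day 1 (background 32.6%), 9 on day 2 (background 32.4%), 5 for day 2 against day 1 (background 13.2%) and 11 for day 5 against day 2 (background 32.7%), and nothing is read from these counts.

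The sign of the differences is given as a description. On day 1 the mean of 24 of the 30 genes lay above control, against 47.8% of all genes, and the median difference of the 30 was 0.12, against -0.015 for all genes. On day 2 it was 17 of 30 (all genes 46.6%), with a median of 0.022, against -0.022. On day 5 it was 7 of 30 (all genes 52%), with a median of -0.071, against 0.0078. The counts on days 1 and 2 were the same after quantile or scale normalization, and the count on day 5 was then 6. The 3 comparisons share their control mice and so do not stand apart from one another.

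**Figure D2:**
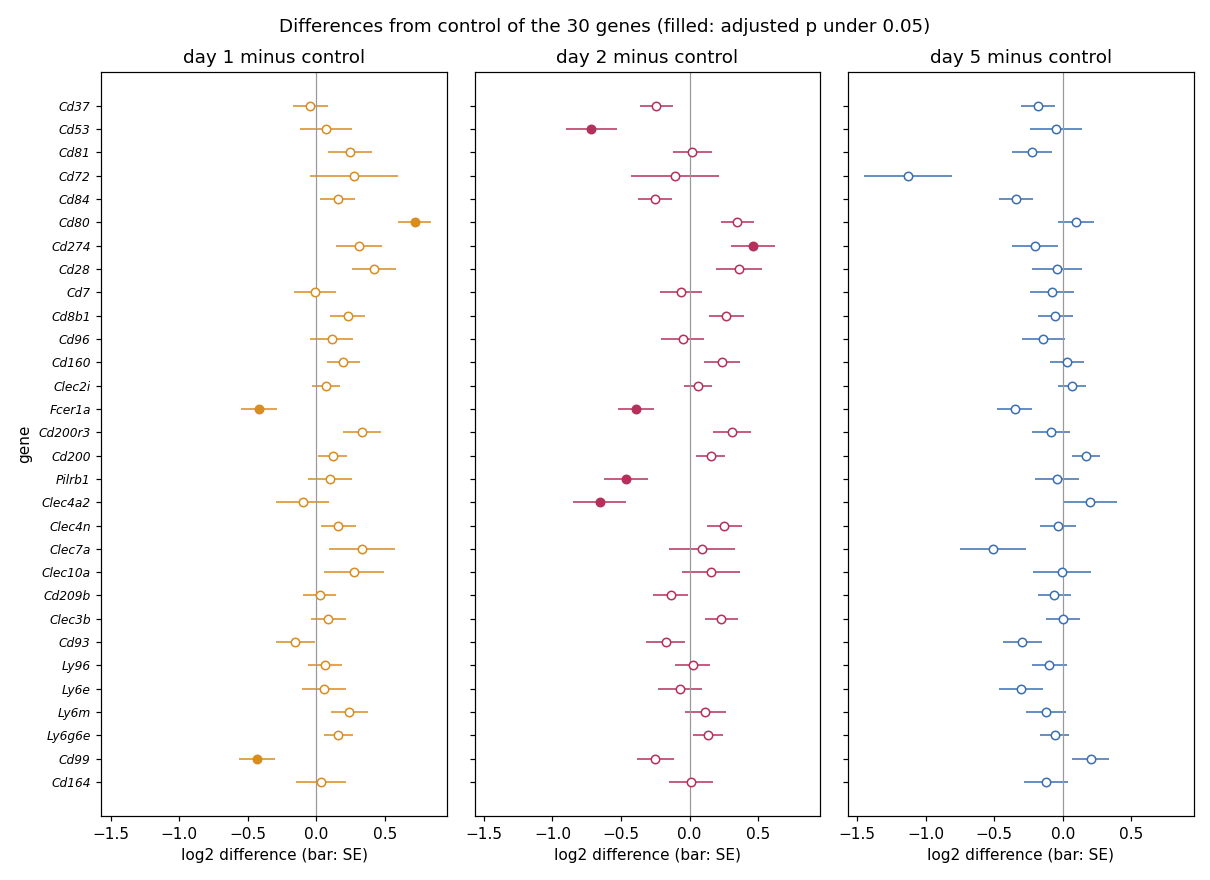
Log2 difference from control (x axis) of each of the 30 genes (rows) on day 1, day 2 and day 5, with the SE of the model as bars. Filled points passed at an adjusted p under 0.05: Cd80, Cd99 and Fcer1a on day 1, Cd274, Cd53, Clec4a2, Fcer1a and Pilrb1 on day 2, and none on day 5.

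Of the 4 antigens that fell on day 2, Cd53, Clec4a2 and Pilrb1 had not passed on day 1. The other, Fcer1a, had fallen on both days and is described below. Cd53 is a tetraspanin found on leukocytes at large, Clec4a2 a C-type lectin receptor of dendritic and other myeloid cells with an inhibitory motif (DCIR), and Pilrb1 the activating member of the paired immunoglobulin-like type 2 receptors, which signals through the adaptor DAP12. The 250 bases before the start of Cd53, Clec4a2 and Pilrb1, which fell on the same day, are shown with matches to searched motifs in capitals. Those of Fcer1a are not shown. The sequences are those of RefSeq on GRCm38.p6, 5′ to 3′ on the strand of the gene, at chr3:106790150-106790399 on the minus strand for Cd53, chr6:123122440-123122689 on the plus strand for Clec4a2 and chr5:137858050-137858299 on the minus strand for Pilrb1.
Cd53: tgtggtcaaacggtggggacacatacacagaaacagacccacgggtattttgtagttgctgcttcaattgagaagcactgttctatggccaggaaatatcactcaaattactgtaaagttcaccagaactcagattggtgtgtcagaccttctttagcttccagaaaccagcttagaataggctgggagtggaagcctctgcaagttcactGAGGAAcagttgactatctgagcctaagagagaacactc
Clec4a2: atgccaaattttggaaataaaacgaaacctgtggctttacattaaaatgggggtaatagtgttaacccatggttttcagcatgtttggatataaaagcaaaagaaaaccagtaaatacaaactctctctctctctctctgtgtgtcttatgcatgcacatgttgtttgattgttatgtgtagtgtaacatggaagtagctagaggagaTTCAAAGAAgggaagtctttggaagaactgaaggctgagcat
Pilrb1: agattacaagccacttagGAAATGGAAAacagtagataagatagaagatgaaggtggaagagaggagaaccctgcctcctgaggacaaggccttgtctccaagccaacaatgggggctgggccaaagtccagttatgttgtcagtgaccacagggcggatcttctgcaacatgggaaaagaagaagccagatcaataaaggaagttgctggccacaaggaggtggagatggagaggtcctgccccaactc
The capitals mark, for Cd53, the core of the PU.1 site 39 to 34 bases before the start, for Clec4a2 a GAS element 42 to 34 bases before it, and for Pilrb1 an IRF element 232 to 223 bases before it. Searched on both strands were GAGGAA (the core that PU.1, a factor of myeloid and B cells, binds), GAAA followed after any 2 bases by a further GAAA (the IRF element, a site of interferon regulatory factors), TTCNNNGAA (the GAS element, a site of STAT factors) and the p53 decamer. None of the 3 matches shown overlaps another. Of 32851 promoters of the same length in the table, 23.3% held the PU.1 core, 2.98% the IRF element, 7.02% the GAS element and 7.13% the p53 decamer. Of the 30 genes, 18 were in the table, and 8, 1, 3 and 2 of these held the 4 motifs in that order. A gene counted if any of its promoters held the motif, while the shares above are of single promoters. The 2 measures are unlike, and nothing is read from the counts. A match is a description of letters only.

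Cd53 had log2 ratios of 0.13, 0.34, 0.38, 0.39 and -0.18 in the 5 control mice, 0.74, -0.32, -0.035, 0.91 and 0.11 in the 5 mice of day 1, -0.83, -0.41, -0.49, -0.30 and -0.49 in the 5 mice of day 2 and 0.16, -0.056, -0.052, 0.63 and 0.14 in the 5 mice of day 5. All 5 mice of day 2 lay below every mouse of the control and day 5 groups, and the day 1 mice were spread over both ranges. The log2 difference from control was -0.72 ± 0.19 (SE, adjusted p = 0.0103) on day 2, with an interval of -1.11 to -0.33, while the day 1 difference was 0.070 ± 0.19 (SE). Day 2 minus day 1 was -0.79 ± 0.19 (SE, adjusted p = 0.0241), and day 5 minus day 2 was 0.67 ± 0.19 (SE, adjusted p = 0.0131). The call of day 2 against day 1 was lost without day 1 mouse 1, day 1 mouse 4 or day 2 mouse 1, and with only those groups in the fit. The fall of Cd53 from control held without any single mouse. Its technical replicates differed by a median of 0.044, against a within-group SD of 0.34.

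Clec4a2 had log2 ratios of 0.36, 0.036, 0.33, 0.025 and -0.026 in the 5 control mice, 0.044, -0.14, -0.19, 0.36 and 0.16 in the 5 mice of day 1, -1.16, -0.24, -0.73, -0.14 and -0.28 in the 5 mice of day 2 and 0.11, 0.40, 0.34, 1.06 and -0.19 in the 5 mice of day 5. The day 2 mice all lay below the control mice, and day 2 mice 1 and 3 were far below the other 3. Its difference from control was -0.66 ± 0.19 (SE, adjusted p = 0.0206) on day 2 and -0.099 ± 0.19 (SE) on day 1. Day 5 minus day 2 was 0.85 ± 0.19 (SE, adjusted p = 0.00276), although day 5 mouse 5 lay within the range of day 2. Without day 2 mouse 1, day 2 mouse 3, control mouse 1 or control mouse 3, the day 2 call was lost, and the difference from control ranged from -0.80 to -0.44 over all alternatives. The day 2 call was also lost with technical replicate 1 alone.

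Pilrb1 had log2 ratios of 0.096, 0.036, 0.29, 0.41 and -0.0012 in the 5 control mice, 0.42, -0.32, 0.32, 0.59 and 0.33 in the 5 mice of day 1, -0.60, -0.40, -0.080, -0.39 and -0.0062 in the 5 mice of day 2 and 0.022, -0.21, 0.11, 0.59 and 0.12 in the 5 mice of day 5. The day 2 mice again all lay below the control mice, here only just, and day 1 mouse 2 was as low as the day 2 mice. The difference from control was -0.46 ± 0.16 (SE, adjusted p = 0.042) on day 2. Day 2 minus day 1 was -0.56 ± 0.16 (SE, adjusted p = 0.0631) and day 5 minus day 2 was 0.42 ± 0.16 (SE, adjusted p = 0.0609), and neither passed. Its call on day 2 was lost when any of 6 mice was left out (day 2 mice 1, 2 and 4 and control mice 1, 3 and 4), and its adjusted p ran from 0.00772 to 0.128 over the alternatives. The call was also lost with technical replicate 2 alone.

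Markers of some myeloid cells moved over the same days. The mean of a marker list in a mouse, here and below, is over the markers with a value in that mouse, so it can cover fewer genes. The mean log2 ratio of 5 neutrophil markers (Ltf, Ngp, S100a9, Mmp9 and Cd177, of 12 listed) ran from -1.60 to -1.11 in the day 2 mice, against -0.087 to 0.25 in control mice. S100a9 had a value in only 3 day 2 mice and 4 control mice. Of the 5, 4 were lower on day 2 than in control (background 9.61%) and higher on day 5 than on day 2 (background 10.3%). The mean of 3 monocyte markers (F13a1, Ms4a6c and Cybb, of 7) ran from -0.61 to -0.11 on day 2, against -0.21 to 0.53 in control mice. Ms4a6c had a value in 4 control mice, and Cybb in 4 mice each of days 1 and 5. Of these 3 markers, 2 were lower on day 1 (background 8.38%), 1 (Cybb) on day 2 (background 9.61%), and all 3 were higher on day 5 than on day 2 (background 10.3%). Of 2 granulocyte precursor markers (Prtn3 and Plac8, of 6), both were lower on day 1 and neither passed against control on day 2. Both were higher on day 5 than on day 2. Of 2 dendritic cell markers (Flt3 and Xcr1, of 7), neither passed in any comparison. Macrophage markers, given below, were higher on day 2. On day 1 the monocyte mean was between -0.69 and -0.26. Among its markers, Cybb differed from control by -0.39 on day 1 (adjusted p = 0.281), which did not pass, and by -1.11 on day 2 (adjusted p = 0.00212). The day 1 mice overlapped control in Cd53, Clec4a2 and Pilrb1. The part of any of these cell types in the values of the 3 antigens was not tested.

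**Figure D3:**
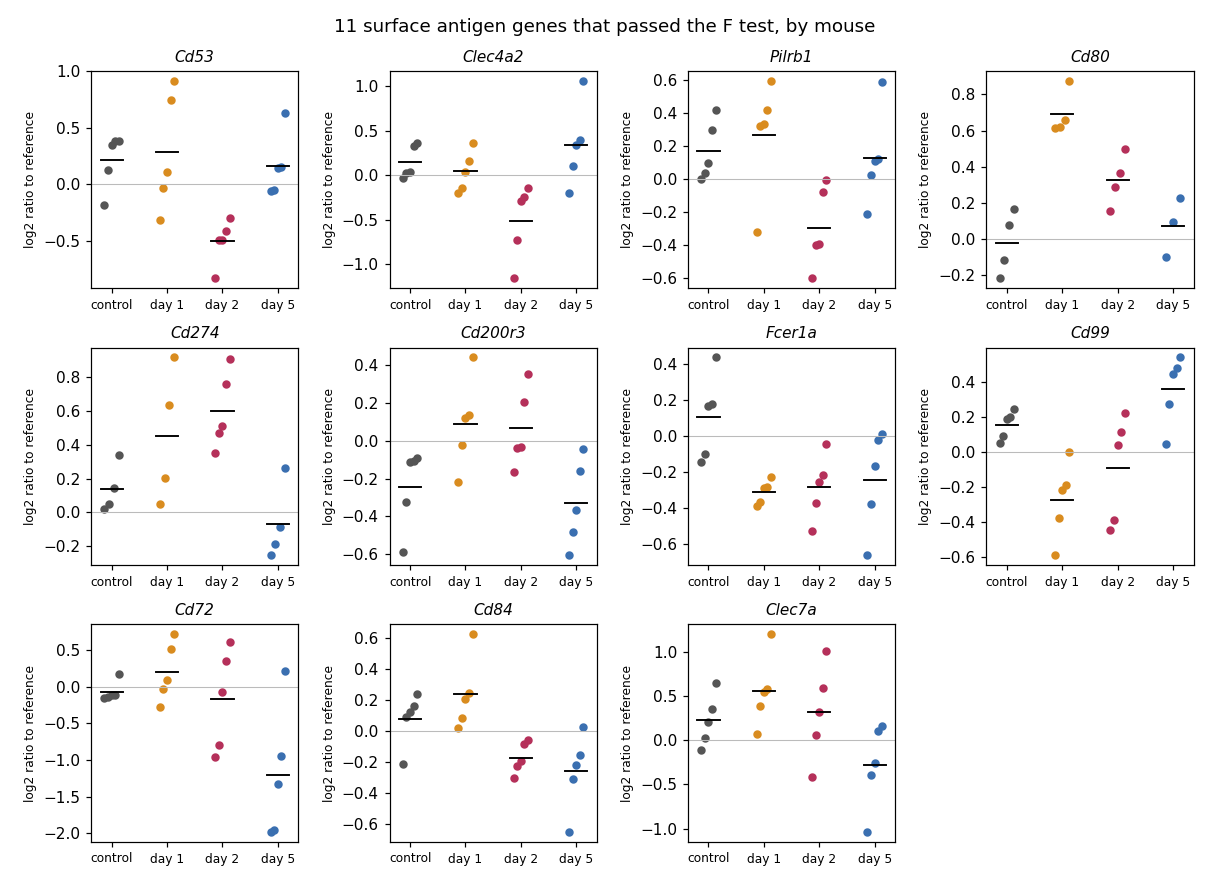
Log2 ratio to the reference (y axis) of each mouse (points) by group (x axis) for the 11 genes that passed the F test, with group means as bars. Cd53, Clec4a2 and Pilrb1 are lowest on day 2, Cd80 is highest on day 1, and Cd72 is lowest on day 5 with 1 mouse apart at 0.21.

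The other tetraspanins did not pass. Cd81, a tetraspanin of many cell types, averaged 0.11 ± 0.15 in control mice (SD, n = 4), 0.36 ± 0.34 in mice of day 1 (SD, n = 3), 0.13 ± 0.19 in mice of day 2 (SD, n = 5) and -0.11 ± 0.20 in mice of day 5 (SD, n = 4). Cd37, a tetraspanin of mature B cells, averaged 0.14 ± 0.14 in control mice (SD, n = 4), 0.096 ± 0.10 in mice of day 1 (SD, n = 4), -0.10 ± 0.20 in mice of day 2 (SD, n = 5) and -0.043 ± 0.20 in mice of day 5 (SD, n = 4). The day 2 difference of Cd37 was -0.24 ± 0.12 (SE) and that of Cd81 was 0.021 ± 0.14 (SE), each with an interval that includes 0. Cd84, a self-binding receptor of the SLAM family, differed among the groups by the F test (adjusted p = 0.011), yet none of the 5 pairs of groups compared passed.

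Cd84 had log2 ratios of 0.24, 0.091, 0.12, 0.16 and -0.21 in the 5 control mice, 0.25, 0.21, 0.083, 0.62 and 0.022 in the 5 mice of day 1, -0.19, -0.081, -0.23, -0.30 and -0.054 in the 5 mice of day 2 and -0.31, -0.65, -0.15, 0.028 and -0.21 in the 5 mice of day 5. Every day 2 mouse lay below every day 1 mouse, and the 4 lowest day 5 mice lay below all but 1 control mouse. The differences were -0.41 ± 0.13 (SE, adjusted p = 0.0895) for day 2 against day 1 and -0.34 ± 0.13 (SE, adjusted p = 0.209) for day 5 against control. The group means lay furthest apart between day 1 (0.24) and day 5 (-0.26), the pair that was not compared. Day 2 and day 1 did not overlap in 2 members, Cd84 and Cd80, against 4.34% of all genes.

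Cd80 and Cd274, the antigens called higher than control, are both of the B7 family. Cd86, of the same family, had no value in any mouse, so nothing is read about the family. Cd80 (B7-1) is the ligand on antigen-presenting cells for CD28 and CTLA-4, and Cd274 (PD-L1) is the inhibitory ligand for PD-1. The 250 bases before each start, again from RefSeq on GRCm38.p6, lie at chr16:38458683-38458932 for Cd80 and chr19:29367188-29367437 for Cd274, both on the plus strand. They are shown because these were the antigens called higher in treated mice than in control. None of the 4 motifs was in either window.
Cd80: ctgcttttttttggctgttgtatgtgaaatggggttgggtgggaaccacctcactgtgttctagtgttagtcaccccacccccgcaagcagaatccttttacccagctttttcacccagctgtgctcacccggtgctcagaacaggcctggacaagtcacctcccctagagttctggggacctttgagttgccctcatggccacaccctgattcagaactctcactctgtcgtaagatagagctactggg
Cd274: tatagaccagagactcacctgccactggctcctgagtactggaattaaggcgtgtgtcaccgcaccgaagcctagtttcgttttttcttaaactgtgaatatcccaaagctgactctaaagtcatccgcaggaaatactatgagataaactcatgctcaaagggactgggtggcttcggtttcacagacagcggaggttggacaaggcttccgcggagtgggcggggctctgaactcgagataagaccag

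Cd80 had log2 ratios of -0.22, 0.076, 0.16 and -0.11 in the 4 control mice measured, 0.61, 0.62, 0.66 and 0.88 in the 4 mice of day 1 measured, 0.50, 0.36, 0.15 and 0.29 in the 4 mice of day 2 measured and -0.10, 0.091 and 0.22 in the 3 mice of day 5 measured. The 4 day 1 mice all lay above every mouse of the other groups, and the day 2 mice lay in between, with 1 of the 4 inside the control range. The difference from control was 0.72 ± 0.12 (SE, adjusted p = 0.001) on day 1, with an interval of 0.46 to 0.97, and 0.35 ± 0.12 (SE, adjusted p = 0.0511) on day 2, which did not pass. On day 5 it was 0.094 ± 0.13 (SE, adjusted p = 0.92), from 3 mice. The day 1 call held in all 10 alternatives and all 17 leave-outs in which Cd80 could be tested.

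Cd274 had log2 ratios of 0.020, 0.14, 0.34 and 0.053 in the 4 control mice measured, 0.048, 0.91, 0.63 and 0.20 in the 4 mice of day 1 measured, 0.90, 0.35, 0.76, 0.51 and 0.47 in the 5 mice of day 2 and -0.18, -0.25, -0.087 and 0.26 in the 4 mice of day 5 measured. The day 2 mice all lay above the control mice, narrowly, and above the day 5 mice, while the day 1 mice were split, with mice 2 and 3 high and mice 1 and 4 within the control range. The difference from control was 0.46 ± 0.16 (SE, adjusted p = 0.0494) on day 2 and 0.31 ± 0.17 (SE, adjusted p = 0.211) on day 1. Day 5 minus day 2 was -0.66 ± 0.16 (SE, adjusted p = 0.00536). The day 2 rise was lost in 5 of 12 alternatives, quantile and scale normalization among them, and when any of 11 mice was left out (day 1 mice 3 and 5, day 2 mice 1, 3 and 4, day 5 mice 1 and 3 and control mice 1, 2, 4 and 5), with an adjusted p of 0.016 to 0.260 over all of these. The difference of day 5 from day 2 held in all of these. Day 1 mouse 5 and control mouse 4 had no Cd274 value, so leaving either out changed only the adjusted p of the day 2 rise, not its size.

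Cd28, the co-stimulatory receptor of T cells that binds CD80, averaged 0.0059 ± 0.13 in control mice (SD, n = 5), 0.43 ± 0.33 in mice of day 1 (SD, n = 5), 0.37 ± 0.39 in mice of day 2 (SD, n = 4) and -0.036 ± 0.16 in mice of day 5 (SD, n = 3). Its difference from control was 0.42 ± 0.16 (SE, adjusted p = 0.0672) on day 1 and 0.36 ± 0.17 (SE, adjusted p = 0.143) on day 2. Neither passed, and day 1 mouse 1 was the lowest of its group, without which the day 1 difference was 0.55 (adjusted p = 0.0103, against 0.0103 to 0.170 over all alternatives). Over the same days the mean of 5 macrophage markers (C1qa, C1qb, Adgre1, Siglec1 and Slc40a1, of 9 listed) ran from 0.37 to 0.80 on day 1 and 0.66 to 1.42 on day 2, against -0.39 to 0.20 in control mice. C1qa had a value in only 4 control mice and 3 day 1 mice. Of the 5 macrophage markers, 2 were higher on day 1 (background 10.7%) and 5 on day 2 (background 9.61%), and all 5 were lower on day 5 than on day 2 (background 10.5%). Of 5 endothelial markers (Cdh5, Kdr, Flt1, Plvap and Tek, of 7), 2 were higher on day 1 and 3 on day 2, with the same backgrounds. Their mean ran from 0.26 to 0.57 on day 1 and 0.33 to 0.57 on day 2, against -0.14 to 0.0055 in control mice. The part of either list in the values of Cd80, Cd274 and Cd28 was not tested.

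**Figure D4:**
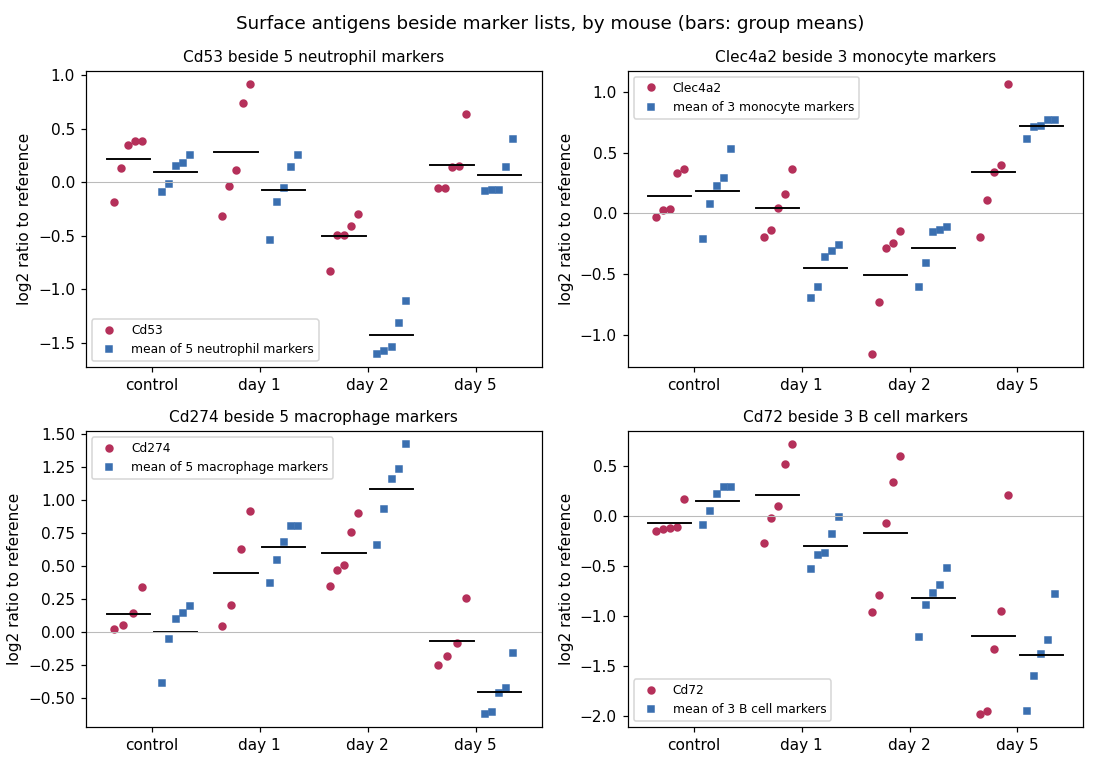
Log2 ratio to the reference (y axis) by mouse and group (x axis) for 4 antigens (red circles) beside the mean of a marker list in the same mice (blue squares), with bars at group means. Each mean is over the markers with a value in that mouse. Cd53 and the 5 neutrophil markers are lowest on day 2. Clec4a2 is lowest on day 2, and the mean of the 3 monocyte markers is low on days 1 and 2. Cd274 and the 5 macrophage markers are highest on day 2, and Cd72 and the 3 B cell markers are lowest on day 5.

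Fcer1a encodes the IgE-binding alpha chain of the high-affinity IgE receptor of mast cells and basophils. It had log2 ratios of 0.17, -0.098, 0.44, -0.15 and 0.18 in the 5 control mice, -0.39, -0.22, -0.28, -0.29 and -0.37 in the 5 mice of day 1, -0.37, -0.26, -0.53, -0.22 and -0.044 in the 5 mice of day 2 and -0.38, -0.022, -0.66, 0.012 and -0.17 in the 5 mice of day 5. All 5 day 1 mice lay below all control mice within a narrow range, while on days 2 and 5 the mice were spread and 1 and 2 of them overlapped control. The difference from control was -0.42 ± 0.13 (SE, adjusted p = 0.0265) on day 1 and -0.39 ± 0.13 (SE, adjusted p = 0.0357) on day 2, and -0.35 ± 0.13 (SE, adjusted p = 0.208) on day 5, where it did not pass. Day 2 minus day 1 was 0.027 ± 0.13 (SE) and day 5 minus day 2 was 0.040 ± 0.13 (SE). The day 1 call was lost without day 1 mouse 5 or control mouse 1, 3 or 5, and the day 2 call without day 2 mouse 1 or 3 or control mouse 1, 3 or 5 and after quantile or scale normalization. Both calls were also lost with technical replicate 1 alone, and Fcer1a could not be tested with technical replicate 2 alone.

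The 2 other tested markers of mast cells and basophils, Ms4a2 and Cpa3, did not pass in any of the 5 comparisons. Ms4a2, the beta chain of the same IgE receptor, differed from control by log2 differences of 0.25, 0.29 and 0.29 on days 1, 2 and 5. Cpa3, a mast cell protease, differed by -0.18, -0.42 and -0.46. Of the 6 listed markers, these 2 and Fcer1a were tested, and their mean ran from -0.094 to 0.078 on day 1, against -0.12 to 0.47 in control mice. Fcgr3, the low-affinity IgG receptor III, had values in 11 mice and was not tested. Its log2 ratios lay between 0.055 and 0.64 in 2 control mice, between 0.28 and 0.41 in 3 day 1 mice, between 0.063 and 0.46 in 3 day 2 mice and between -0.17 and 0.27 in 3 day 5 mice.

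Of 10 tested genes that signal below Fc receptors, 1 was higher on day 1 (background 10.7%), 1 on day 2 (background 9.61%) and 1 on day 5 (background 0.906%). On day 5, 1 was also lower (background 1.72%). Pik3cg, a kinase subunit of leukocytes, differed from control by 0.37 on day 1 (adjusted p = 0.031). Lat2, an adaptor of mast cells and B cells, differed by 0.57 on day 2 (adjusted p = 0.00107) and 0.42 on day 5 (adjusted p = 0.0308). Syk, the kinase that binds phosphorylated receptor tails, differed by -0.55 on day 5 (adjusted p = 0.0068). On day 5 against day 2, Syk, Lat and Pik3cg were lower (background 10.5%), with differences of -0.34, -0.51 and -0.48. The median of the 10 was 0.058, 0.0075 and -0.20 on days 1, 2 and 5, against -0.015, -0.022 and 0.0078 for all genes.

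Cd200r3 encodes an activating relative of the CD200 receptor that in mice is found on basophils and mast cells and pairs with DAP12. It had log2 ratios of -0.32, -0.10, -0.091, -0.59 and -0.11 in the 5 control mice, -0.22, 0.12, 0.44, -0.023 and 0.14 in the 5 mice of day 1, 0.36, -0.16, 0.21, -0.036 and -0.032 in the 5 mice of day 2 and -0.043, -0.36, -0.48, -0.61 and -0.16 in the 5 mice of day 5. Days 1 and 2 were higher than control in their means, with overlap at single mice, and days 5 and 2 overlapped at day 5 mice 1 and 5. The differences from control were 0.33 ± 0.14 (SE, adjusted p = 0.0886) on day 1 and 0.31 ± 0.14 (SE, adjusted p = 0.117) on day 2, neither of which passed. Day 5 minus day 2 was -0.40 ± 0.14 (SE, adjusted p = 0.0411), and this call was lost without day 2 mouse 1 or 3 or day 5 mouse 2, 3 or 4. It was also lost with technical replicate 2 alone. Cd200, the ligand of the family, averaged -0.0061 ± 0.095 in control mice (SD, n = 5), 0.11 ± 0.20 in mice of day 1 (SD, n = 5), 0.15 ± 0.11 in mice of day 2 (SD, n = 5) and 0.16 ± 0.16 in mice of day 5 (SD, n = 5) and passed in no comparison. Tyrobp, which encodes DAP12, differed by -0.33, -0.40 and -0.21 on days 1, 2 and 5 and did not pass.

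Cd72 encodes a C-type lectin co-receptor of B cells with an inhibitory motif. It had log2 ratios of -0.16, -0.14, -0.12, 0.17 and -0.11 in the 5 control mice, -0.28, 0.52, 0.71, -0.027 and 0.095 in the 5 mice of day 1, -0.80, -0.069, -0.96, 0.60 and 0.34 in the 5 mice of day 2 and -0.95, -1.33, -1.95, -1.98 and 0.21 in the 5 mice of day 5. On day 5, 4 mice lay below every mouse of the control and day 1 groups, and mouse 5 lay above all of the control mice. The difference of day 5 from control was -1.13 ± 0.32 (SE, adjusted p = 0.0594) and did not pass, while day 5 against day 2 was -1.02 ± 0.32 (SE, adjusted p = 0.0244) and did. Without day 5 mouse 5 the difference from control was -1.48 (adjusted p = 0.00152, against 0.00152 to 0.192 over all alternatives). The call of day 5 against day 2 was lost without day 2 mouse 4 or 5 or day 5 mouse 3 or 4, and with only those groups in the fit. Cd72 had the widest spread of the 30 genes, with a within-group SD of 0.60.

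Of 8 tested genes of the B cell receptor pathway, 2 were called lower on day 1 (background 8.38%), 2 on day 2 (background 9.61%) and 4 on day 5 (background 1.72%). None was called higher. The medians of the 8 were -0.25, -0.42 and -1.23 on days 1, 2 and 5, against -0.015, -0.022 and 0.0078 for all genes. The 4 on day 5 were Vpreb3 (-1.72, adjusted p = 0.000486) and Vpreb1 (-1.11, adjusted p = 0.00353), both genes of B cell precursors, Syk, and Ms4a1 (CD20, -1.79, adjusted p = 0.0116). Vpreb1 and Vpreb3 were also the 2 that fell on days 1 and 2. On day 5 against day 2, Ms4a1 (-1.57), Fcmr, the Fc receptor for IgM (-1.61), and Syk were lower (background 10.5%). On day 1, unlike Vpreb1 and Vpreb3, Ms4a1 and Fcmr had means above control. Their differences were 0.78 (adjusted p = 0.174) and 0.81 (adjusted p = 0.281), and neither passed. The mean of the 3 B cell markers Ms4a1, Vpreb1 and Vpreb3 (of 12 listed) ran from -1.95 to -0.78 on day 5, against -0.092 to 0.28 in control mice. Vpreb1 had a value in only 4 day 2 mice, so the day 2 means do not all cover the same genes. The day 5 mouse with the highest Cd72 also had the highest of these marker means, and the day 2 mouse with the lowest Cd72 the lowest. In the other groups it was the reverse. The control mouse with the highest Cd72 had the lowest marker mean, and the day 1 mouse with the lowest Cd72 had the highest. The part of B cell numbers in the value of Cd72 was not tested.

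The remaining lectin receptors were Clec7a, Clec4n, Clec10a, Cd209b and the secreted Clec3b. Clec7a (dectin-1, the beta-glucan receptor of myeloid cells) differed among the groups by the F test (adjusted p = 0.0475). It had log2 ratios of 0.35, -0.11, 0.64, 0.20 and 0.029 in the 5 control mice, 0.58, 0.39, 0.066, 1.20 and 0.54 in the 5 mice of day 1, 0.061, 0.59, 1.01, -0.42 and 0.32 in the 5 mice of day 2 and -0.40, 0.16, -1.04, 0.11 and -0.26 in the 5 mice of day 5. The groups overlapped, with day 1 highest and day 5 lowest in their means. The difference was -0.60 ± 0.24 (SE, adjusted p = 0.0797) for day 5 against day 2 and -0.51 ± 0.24 (SE, adjusted p = 0.431) for day 5 against control, and none of the 5 pairs of groups compared passed.

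Clec4n (dectin-2, which binds fungal mannans) averaged 0.23 ± 0.13 in control mice (SD, n = 4), 0.39 ± 0.24 in mice of day 1 (SD, n = 5), 0.48 ± 0.21 in mice of day 2 (SD, n = 5) and 0.19 ± 0.052 in mice of day 5 (SD, n = 4) and did not pass. Clec10a, a galactose-type lectin of macrophages and dendritic cells, averaged 0.070 ± 0.19 in control mice (SD, n = 3), 0.34 ± 0.29 in mice of day 1 (SD, n = 4), 0.23 ± 0.50 in mice of day 2 (SD, n = 5) and 0.063 ± 0.15 in mice of day 5 (SD, n = 5). Cd209b (SIGN-R1, a macrophage lectin) averaged -0.026 ± 0.19 in control mice (SD, n = 5), -0.00027 ± 0.29 in mice of day 1 (SD, n = 5), -0.16 ± 0.11 in mice of day 2 (SD, n = 4) and -0.088 ± 0.041 in mice of day 5 (SD, n = 5). Clec3b (tetranectin) averaged 0.040 ± 0.26 in control mice (SD, n = 4), 0.13 ± 0.20 in mice of day 1 (SD, n = 4), 0.27 ± 0.12 in mice of day 2 (SD, n = 5) and 0.043 ± 0.10 in mice of day 5 (SD, n = 5), and its day 5 mice all lay below its day 2 mice with a difference of -0.23 ± 0.12 (SE, adjusted p = 0.171), which did not pass.

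Cd93, a lectin-like receptor of endothelium and of early B cells and myeloid cells, averaged 0.26 ± 0.093 in control mice (SD, n = 5), 0.11 ± 0.11 in mice of day 1 (SD, n = 5), 0.091 ± 0.30 in mice of day 2 (SD, n = 5) and -0.030 ± 0.33 in mice of day 5 (SD, n = 5). Its difference from control was -0.29 ± 0.14 (SE) on day 5, which did not pass (adjusted p = 0.447). Ly96 (MD-2, the partner of TLR4 in sensing endotoxin) averaged 0.032 ± 0.070 in control mice (SD, n = 5), 0.094 ± 0.25 in mice of day 1 (SD, n = 5), 0.055 ± 0.21 in mice of day 2 (SD, n = 5) and -0.066 ± 0.22 in mice of day 5 (SD, n = 5). Cd164 (endolyn, a sialomucin of blood progenitors) averaged 0.18 ± 0.18 in control mice (SD, n = 4), 0.21 ± 0.49 in mice of day 1 (SD, n = 3), 0.20 ± 0.24 in mice of day 2 (SD, n = 5) and 0.064 ± 0.14 in mice of day 5 (SD, n = 5). None of these 3 passed in any comparison, and the intervals of Ly96 against control ran from -0.20 to 0.32 on day 1 and from -0.24 to 0.28 on day 2.

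Cd99 encodes a transmembrane protein that takes part in the passage of leukocytes through endothelium. It had log2 ratios of 0.053, 0.19, 0.092, 0.20 and 0.25 in the 5 control mice, -0.19, 0.0017, -0.38, -0.59 and -0.22 in the 5 mice of day 1, -0.39, 0.039, -0.44, 0.11 and 0.22 in the 5 mice of day 2 and 0.047, 0.54, 0.28, 0.48 and 0.45 in the 5 mice of day 5. The day 1 mice all lay below the control mice, the day 2 mice split into 2 low (mice 1 and 3) and 3 near control, and 4 of 5 day 5 mice lay above the control range. The difference from control was -0.43 ± 0.13 (SE, adjusted p = 0.0271) on day 1 and -0.25 ± 0.13 (SE, adjusted p = 0.201) on day 2, and day 5 minus day 2 was 0.45 ± 0.13 (SE, adjusted p = 0.0173). The day 1 call was lost without day 1 mouse 3 or 4 or control mouse 5, and that of day 5 against day 2 without day 2 mouse 1 or 3. With technical replicate 1 alone the day 1 call was lost as well. Cd99 was the one member with 2 probes. The probe measured in all 20 mice gave -0.51 on day 1 against control and 0.45 on day 5 against day 2, and the other gave -0.22 from 3 day 1 and 4 control mice and 0.55 from 1 day 5 mouse.

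The T and NK cell antigens gave no call. Cd7, an immunoglobulin-family antigen of T and NK cells, averaged 0.065 ± 0.27 in control mice (SD, n = 5), 0.056 ± 0.29 in mice of day 1 (SD, n = 5), 0.0024 ± 0.14 in mice of day 2 (SD, n = 5) and -0.014 ± 0.32 in mice of day 5 (SD, n = 4). Cd8b1, the beta chain of the CD8 co-receptor, averaged -0.088 ± 0.078 in control mice (SD, n = 4), 0.14 ± 0.30 in mice of day 1 (SD, n = 5), 0.18 ± 0.17 in mice of day 2 (SD, n = 5) and -0.14 ± 0.11 in mice of day 5 (SD, n = 5). Cd96, a receptor for the poliovirus receptor CD155, averaged 0.016 ± 0.26 in control mice (SD, n = 4), 0.13 ± 0.36 in mice of day 1 (SD, n = 5), -0.035 ± 0.25 in mice of day 2 (SD, n = 5) and -0.13 ± 0.036 in mice of day 5 (SD, n = 5). All 3 kept overlapping groups between treated and control mice. The difference of Cd8b1 on day 2 was 0.27 ± 0.13 (SE, adjusted p = 0.149).

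Cd160, a receptor of NK cells and cytotoxic T cells, averaged -0.098 ± 0.19 in control mice (SD, n = 3), 0.099 ± 0.13 in mice of day 1 (SD, n = 5), 0.14 ± 0.095 in mice of day 2 (SD, n = 3) and -0.071 ± 0.099 in mice of day 5 (SD, n = 4). Clec2i, a lectin-like ligand of NK receptors, averaged -0.087 ± 0.10 in control mice (SD, n = 5), -0.014 ± 0.15 in mice of day 1 (SD, n = 5), -0.027 ± 0.15 in mice of day 2 (SD, n = 5) and -0.021 ± 0.16 in mice of day 5 (SD, n = 5). None of the 10 listed T cell markers was measured in enough mice. Of 7 NK cell markers, Nkg7 and Klrd1 were tested, and neither passed against control on any day, while day 5 minus day 2 was 0.75 for Nkg7 (adjusted p = 0.00121). Of 3 tested genes of T cell receptor signalling, Lat was lower on day 5 than on day 2, and none passed against control. The differences from control of these 5 antigens and Cd28 had a median of 0.15 on day 1 and 0.15 on day 2.

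The Ly6 family, small proteins held by a lipid anchor, gave no call either. Ly6e averaged -0.22 ± 0.37 in control mice (SD, n = 5), -0.16 ± 0.24 in mice of day 1 (SD, n = 5), -0.29 ± 0.16 in mice of day 2 (SD, n = 5) and -0.52 ± 0.30 in mice of day 5 (SD, n = 5). Ly6m averaged -0.088 ± 0.062 in control mice (SD, n = 4), 0.15 ± 0.31 in mice of day 1 (SD, n = 4), 0.027 ± 0.011 in mice of day 2 (SD, n = 3) and -0.21 ± 0.17 in mice of day 5 (SD, n = 3), and its 3 day 2 mice lay above its 4 control mice with a difference of 0.11 ± 0.15 (SE, adjusted p = 0.65). Ly6g6e averaged 0.090 ± 0.14 in control mice (SD, n = 5), 0.25 ± 0.21 in mice of day 1 (SD, n = 5), 0.22 ± 0.090 in mice of day 2 (SD, n = 5) and 0.029 ± 0.15 in mice of day 5 (SD, n = 5). The interval of Ly6g6e against control ran from -0.062 to 0.38 on day 1.

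Of 5 tested integrin and adhesion genes, Icam2, a ligand of leukocyte integrins, was lower on day 1 (-0.34, adjusted p = 0.0277). Itgb1, the integrin beta 1 chain, was higher on day 2 (0.54, adjusted p = 0.00464) and lower on day 5 than on day 2 (-0.46, adjusted p = 0.0103). Cxcr4, the chemokine receptor that holds cells in marrow, was lower on day 2 (-0.63, adjusted p = 0.0333). None of the 5 passed on day 5 against control. Over all genes, 19.1% passed on day 1, 19.2% on day 2, 2.62% on day 5 and 20.8% for day 5 against day 2.

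Mice that did not overlap between groups were counted for all 30 genes. On day 1, 3 members were separate from control (Cd80, Cd99 and Fcer1a), against 13% of all genes. On day 2, 5 were separate (Cd274, Cd53, Clec4a2, Pilrb1 and Ly6m), against 19%, and on day 5 none was, against 6.34%. Day 5 and day 2 were separate in 5 members (Cd53, Cd274, Clec3b, Cd160 and Ly6m), against 18.9%. Over the 30 genes the technical replicates of a mouse differed by a median of 0.039 to 0.17, in each gene less than its within-group SD of 0.13 to 0.60. For Cd80 the margin was small, with a median of 0.13 against an SD of 0.15. In single mice the replicates differed by up to 1.40 for Cd72, 0.72 for Cd200 and 0.60 for Clec4a2. The within-group SD includes technical error, so it does not measure the spread between mice alone.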

How the data were processed

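The authors deposited 1 number per probe and column, 40 columns in all, for 20 mice with 2 technical replicates each. Per the labels, Cy5 carried the mouse RNA and Cy3 a common reference, so these deposited values were taken as log2 ratios of mouse over reference. No header or label names the scanner, background correction, normalization or rule for blank values. The labels call the reference a pool of untreated marrow, while its treatment field names cyclophosphamide, and this was not settled. The reference cancels in differences between groups. The columns' medians lay between -0.0151 and 0.00671. Of 780 pairs of columns, the lowest correlation was -0.175 and 0 were below -0.3. Between 40.7% and 69.7% of probes were blank per column.

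Of 13443 probes, 10032 had 1 gene symbol, 170 had several and 3241 had no entry, per the platform annotation, and 10030 of those with 1 symbol matched RefSeq. Technical replicates were averaged, then probes of a symbol. The series text speaks of replicates per array, so the technical replicates of a mouse may share an array. Blanks were not filled. A gene was tested with values in at least 3 mice of every group. One mean per group was fitted over 20 mice with limma 3.58.1 under R 4.3.3 (lmFit, eBayes, prior degrees of freedom 7.8), adjusted by Benjamini-Hochberg over 5297 genes and unnamed probes, with calls at an adjusted p under 0.05. Precision rests on the 5 mice per group, fewer where values were blank, and the fit leaves blank mice out. The steps were tested on simulated data. The members, gene lists and tests were chosen with earlier results of these data known. Mouse values are given for members that passed any test, and group means for the rest. Alternatives were normalization, blank filters, probes apart, technical replicates apart or alone, a replicate block, and each mouse left out. Further ones were a robust form of eBayes, only the groups compared in the fit, and saturated-looking values left out. Such a value, shared by many probes of a column to within 0.001, was found in 26 columns. It made up 561 values (0.238%), with 0 of them in members.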

Additional observations from a re-analysis of the deposited data

Results flagged for a closer look

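In 3 of 111 groups of mice examined (a gene in a group of 4 or 5 mice), 1 mouse stood apart from the others by Dixon's test, where chance gives about 1 in 20. These were Cd72 in control mouse 4, at a log2 ratio of 0.17 while the other control mice lay below 0, Clec10a in day 5 mouse 5, at -0.20, and Clec3b in day 5 mouse 1, at -0.13. Cd72 gave no call against control, with or without that mouse.

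By limma's contrast of the days themselves, 6 genes differed between day 2 and day 1 or between day 5 and day 2, the pairs of days compared. Day 2 minus day 1 was -0.79 for Cd53. Day 5 minus day 2 was -1.02 for Cd72, -0.66 for Cd274, -0.40 for Cd200r3, 0.45 for Cd99, 0.67 for Cd53 and 0.85 for Clec4a2. Each rests on 5 mice per day except Cd274, with 4 on day 5.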

How the results depend on the processing

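No called difference of a member changed sign in any alternative. Of the 15 calls, 5 held throughout: Cd80 on day 1, Cd53 on day 2, and Cd53, Cd274 and Clec4a2 on day 5 against day 2. Counts of members called moved by over 1.5 times as follows, and the cause was not tested. On day 1 (3 reported) the count was 5 with technical replicates apart and mouse as a random block, and 1 with technical replicate 2 alone. On day 2 (5 reported) it was 3 with quantile normalization, scale normalization or either technical replicate alone. On day 5 (0 reported) it was 1, Cd72, with scale normalization or the random block. For day 2 against day 1 (1 reported) it was 3 with the random block, 2 with technical replicate 1 alone and 0 with only the groups compared in the fit. By the F test (11 reported) it was 6 with technical replicate 2 alone.

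Over all genes, the day 5 count of 139 became 222 with scale normalization and 210 with the random block. The count of 111 for day 2 against day 1 became 70, 241 and 65 with scale normalization, the random block and only those groups, and the split of 72 higher and 39 lower became 38 and 32 with scale normalization. With the replicate number as a block, day 2 against day 1 gave 2 members and day 5 against day 2 gave 7 (6 reported), each adding Pilrb1. The labels do not say that the numbers pair the mice. Same-numbered mice of different groups correlated at -0.391 to 0.33 (median -0.0023, 30 pairs), and differently numbered ones at -0.445 to 0.409 (median 0.0016). Of 20 mice, 8 correlated best with a mouse of their own number. The number due to chance was not computed, so these values do not settle whether the numbers pair the mice.

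Leaving out 1 mouse at a time gave 1 to 5 members on day 1 (1 without control mouse 5, 5 without day 1 mouse 1), 1 to 6 on day 2 (1 without day 2 mouse 1 or control mouse 1, 2 without day 2 mouse 3, 3 without control mouse 3, 4 or 5), 0 to 1 on day 5 (1 without day 2 mouse 3 or 4 or day 5 mouse 5), 0 to 2 for day 2 against day 1 (0 without day 1 mouse 1 or 4 or day 2 mouse 1), 4 to 7 for day 5 against day 2 and 7 to 12 by the F test (7 without day 1 mouse 5 or day 2 mouse 1). Over all genes the ranges were 611 to 1313 (611 and 641 without day 1 mouse 3 and mouse 2), 592 to 1123 (592 without day 2 mouse 1), 100 to 161, 77 to 167 (167 without day 5 mouse 4), 816 to 1211 and 1414 to 1860. Blank values kept 71 of 101 antigens out of the tests.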

Other observations

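The 42 annotated antigens with values in some mice only were in no test, and their log2 ratios are given as values. Ptprcap, the CD45-associated protein of lymphocytes, had values in 12 mice, between -0.35 and 0.13 in 3 control mice, between -0.58 and -0.30 in 4 day 1 mice, between -0.31 and -0.060 in 2 day 2 mice and between -1.71 and 0.17 in 3 day 5 mice. Cd52, a small glycoprotein of lymphocytes, had values in 13 mice, between -0.0020 and 0.59 in 4 control mice, 0.52 and 0.75 in 2 day 1 mice, 0.043 to 0.80 in 4 day 2 mice and 0.33 to 0.88 in 3 day 5 mice.

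Fcer2a (CD23, the low-affinity IgE receptor of B cells) lay between -0.17 and 0.17 in 3 control mice, between -0.31 and 0.67 in 3 day 1 mice, between 0.19 and 0.71 in 3 day 2 mice and at 0.074 in 1 day 5 mouse. Cd4 lay between 0.0066 and 0.28 in 3 control mice, at 0.29 and 0.39 in 2 day 1 mice, between -0.095 and 0.25 in 3 day 2 mice and at 0.087 and 0.13 in 2 day 5 mice. Clec4d, a lectin of the dectin-2 cluster, was at 0.082 and 0.11 in 2 control mice, at 0.45 in 1 day 1 mouse and at 2.17 in 1 day 2 mouse. Ly6g6d lay between -0.54 and -0.11 in 3 control mice, between 0.16 and 0.48 in 2 day 1 mice and between -0.026 and 0.46 in 3 day 2 mice, and was at 0.067 in 1 day 5 mouse.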
